A study of Mus musculus with 6 samples.

Results

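The genes described here act in meiotic recombination, from the formation of DNA breaks to the crossover. They are Spo11, Hormad1, Prdm9, Dmc1, Meiob, Msh4, Msh5, Hfm1, Ccnb1ip1 and Mlh3. These 10 genes were chosen by name for their place in the pathway and make up 10 of the 32285 genes in the tables, and none was chosen for its level. Testes of C57BL/6 wildtype male mice (C57BL/6N in the study's methods) 8 weeks old had been dissociated and read by droplet single-cell RNA sequencing. The mice had been given low-fat food (LFD) or high-fat food (HFD) for 2 weeks. There are 3 libraries labelled HFD and 3 labelled LFD, which share strain, sex, age and tissue. Nothing in the labels says more about which mouse gave which library, so p-values measure the spread between libraries. The deposited file names give each of the 6 libraries the opposite diet from its label. Cell numbers in the study's own mapping summary match these files under the file names, not under the labels. The groups are therefore named "labelled HFD" and "labelled LFD", and every diet sign below turns if the file names are right.

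In meiosis the germ cell breaks its own chromosomes on purpose. SPO11 cuts the DNA, PRDM9 marks where, and the recombinase DMC1 carries the resected strand into the homologous chromosome. A minority of these events is then stabilised by the MSH4 and MSH5 pair and resolved into crossovers by nucleases that include MLH3. In the mouse testis this runs through leptotene, zygotene and pachytene of meiotic prophase, before the divisions that give round spermatids.

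Stages were set from the unique molecular identifiers (UMIs) of marker genes, none of which is a recombination gene described here. Of 48939 barcodes, 12392 held at least 5000 UMIs and 9647 of these received a class, 9259 of them a germ cell class. The classes are ranges of a score, not sharp types. Among classed barcodes 2273 lay within 0.25 to 0.5 score units of their second class, and 2210 closer ones were left out. The early meiotic prophase-like class held 931 barcodes with a median of 7572 UMIs, 68 to 194 per library. It was led by Prss50, Hist1h1a and Stra8, of which Prss50 and Stra8 are markers that set the class. The pachytene-like class held 1393 barcodes with a median of 31294 UMIs. Piwil1, a marker that set the class, was among its leading genes. Of the markers found in the tables, 9 of 10 were highest in the early meiotic prophase-like class, 4 of 9 in the pachytene-like class and 3 of 5 in the elongation-start class. Totals per library ran from 39196921 to 95845514 UMIs, and any pair of libraries shared 12 to 28 barcode sequences. The replicate 1 libraries of both labels stood apart, with haemoglobin transcripts at 0.0209 and 0 CPM (counts of a gene scaled to a common total of UMIs of all genes) against 30.5 to 99.7 CPM in the others. Levels below are CPM of all UMIs of a class in a library. They compare classes within a gene and not 1 gene with another, because these are tags of transcript ends.

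Upstream sequences are shown for 4 genes with an early (Prdm9 and Dmc1), a broad (Hormad1) and a late (Mlh3) course, among those whose window lies upstream of the annotated gene. Each line gives the 250 bases before the RefSeq start on GRCm38.p6, 5′ to 3′ on the gene's strand. Capitals mark matches, on either strand, to an E-box (CACGTG), an E2F-type motif (GCGGGAA) or a STRA8-type motif (CNCCTCAG).
Prdm9, chr17:15564355-15564604, minus strand: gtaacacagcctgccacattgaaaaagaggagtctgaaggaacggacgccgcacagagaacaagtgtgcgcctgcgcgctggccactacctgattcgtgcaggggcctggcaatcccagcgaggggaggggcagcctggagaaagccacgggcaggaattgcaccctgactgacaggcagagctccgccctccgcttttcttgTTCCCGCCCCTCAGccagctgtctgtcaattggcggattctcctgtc
Dmc1, chr15:79605110-79605359, minus strand: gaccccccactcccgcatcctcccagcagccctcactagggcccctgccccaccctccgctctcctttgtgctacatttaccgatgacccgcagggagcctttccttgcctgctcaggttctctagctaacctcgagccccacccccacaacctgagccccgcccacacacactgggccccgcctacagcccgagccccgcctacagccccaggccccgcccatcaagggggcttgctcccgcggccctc
Hormad1, chr3:95559427-95559676, plus strand: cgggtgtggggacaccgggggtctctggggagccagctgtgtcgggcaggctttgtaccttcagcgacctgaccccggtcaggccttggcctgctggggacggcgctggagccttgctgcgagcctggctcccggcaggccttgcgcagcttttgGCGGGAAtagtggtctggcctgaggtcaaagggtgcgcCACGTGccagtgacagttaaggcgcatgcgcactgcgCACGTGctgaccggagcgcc
Mlh3, chr12:85270600-85270849, minus strand: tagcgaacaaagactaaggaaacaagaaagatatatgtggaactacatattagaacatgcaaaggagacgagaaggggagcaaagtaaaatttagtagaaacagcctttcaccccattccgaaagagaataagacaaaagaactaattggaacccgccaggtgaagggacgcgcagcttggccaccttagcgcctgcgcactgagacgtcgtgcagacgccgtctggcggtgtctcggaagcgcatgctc

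The Prdm9 window held an E2F-type match that starts 47 bases upstream and overlaps a STRA8-type match that starts 41 bases upstream. The Hormad1 window held an E2F-type match at 95 bases and E-boxes at 57 and 20 bases. The Dmc1 and Mlh3 windows held none of the 3 motifs. Windows were found for 8 of the 10 genes, and of the others Msh5 held a STRA8-type match at 82 bases and an E2F-type match at 65 bases, and Hfm1 a STRA8-type match at 66 bases. A second RefSeq start of Prdm9 (window chr17:15563332-15563581) held no match. The Msh5 and Hfm1 windows lie partly or wholly inside the annotated genes, so only the 30 bases around the STRA8-type match are given.
Msh5, within chr17:35046623-35046872, minus strand: gatcgtcgcggCTGAGGTGacggaaaagGC
Hfm1, within chr5:106925891-106926140, minus strand: cggcctgaggcCTGAGGCGcaccgtgcggt

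Over all 32851 windows of the same length, 6.02% held the E-box, 3.82% the E2F-type motif and 6.42% the STRA8-type motif. The motif counts describe letters in these windows and were not tested against any level.

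Most of these genes rose together on entry into meiosis. From the spermatogonia-like to the early meiotic prophase-like class 9 of the 10 rose and none fell, by edgeR's quasi-likelihood test across 15278 genes at an adjusted p under 0.05. Of all genes tested, 25.7% rose and 21.6% fell in this comparison (47.3% either way). The median log2 difference was 2.95 over the 10 genes and 0.18 over all genes. Of all calls 3924 were higher and 3300 lower, against 3085 and 3899 with size factors of the relative log expression (RLE) method, under which the same count of 9 of the 10 genes rose. The plot of the 10 genes by class shows the mean CPM of 8 of them highest in the early meiotic prophase-like class. Spo11 and Mlh3 were highest in the pachytene-like class. For Hormad1, Msh4 and Ccnb1ip1 the difference between these classes did not pass (edgeR adjusted p = 0.152, 0.438 and 0.449). That of Ccnb1ip1 was 0.16 ± 0.19 on edgeR's log2 scale, higher in the pachytene-like class. Its CPM was lower there in 6 of 6 libraries, at a mean of 35.1 against 44.4 CPM. The log2 differences carry edgeR's scaling factors (TMM) and the CPM do not, so they can differ.

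**Figure D1:**
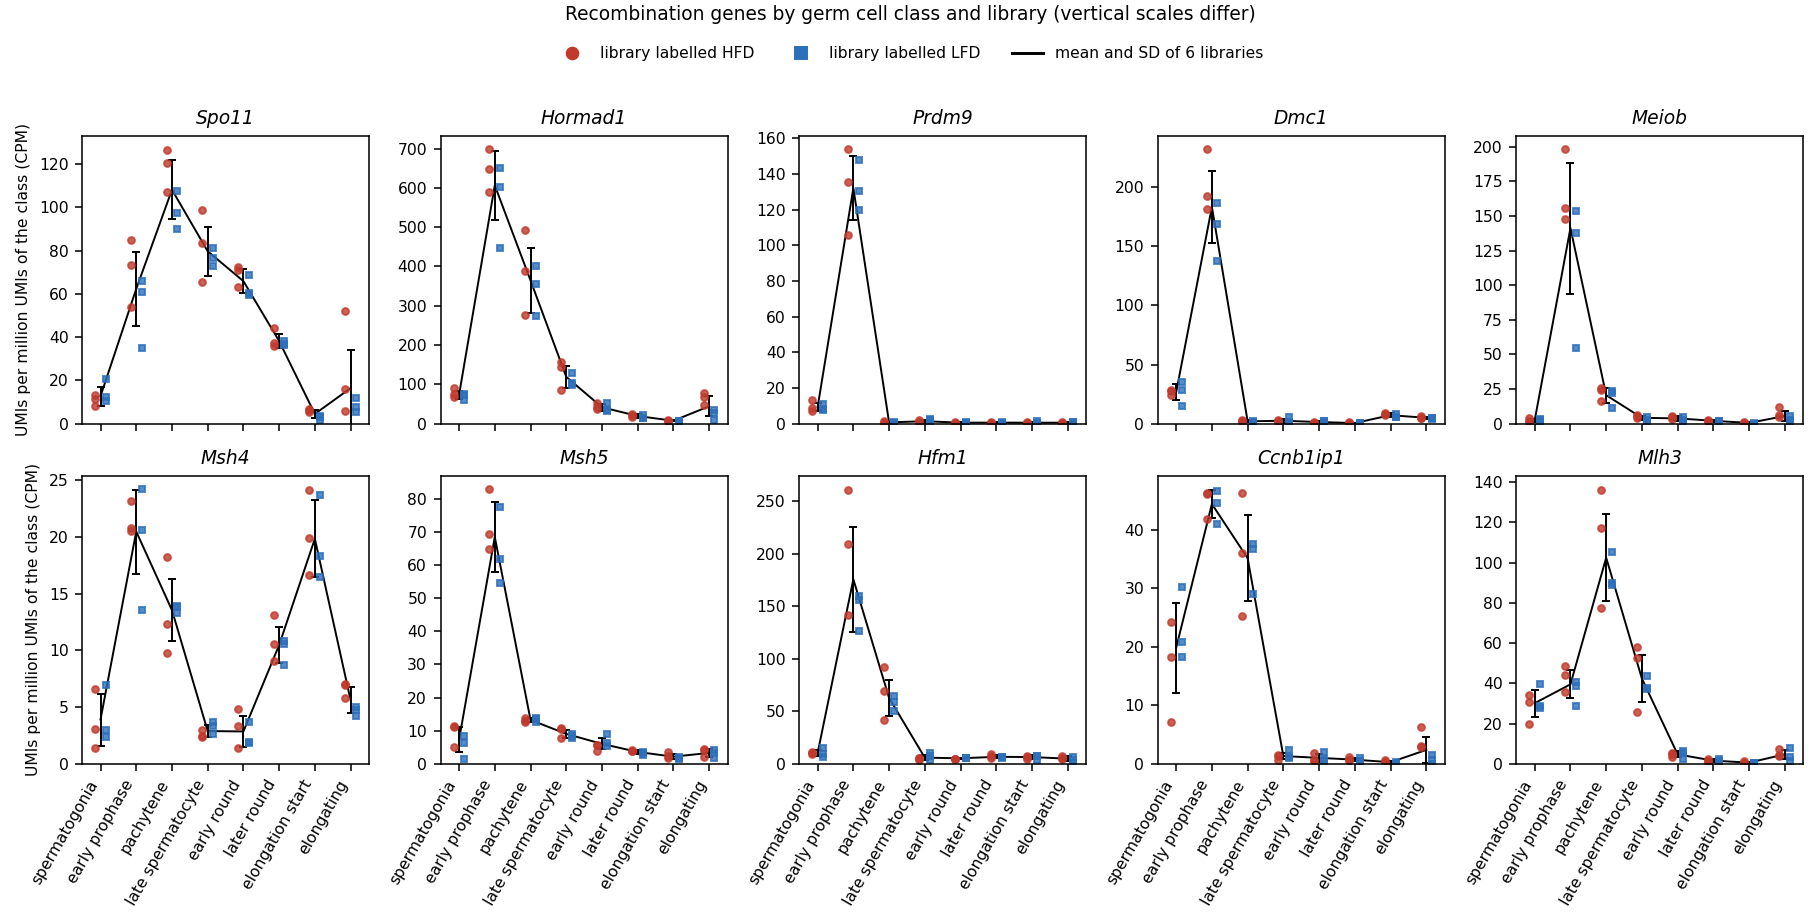
Level of each recombination gene (CPM, vertical axes from 0 and differing between panels) in 8 germ cell classes, with 1 point per library and the mean ± SD of 6 libraries in black. Mean Prdm9 and Dmc1 levels drop from 132 and 183 CPM in early prophase to 0.713 and 1.96 CPM in pachytene, Spo11 and Mlh3 peak in pachytene, and Msh4 rises again at the start of elongation to 19.9 CPM.

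Among the genes of break formation, Prdm9 was high in 1 class. It encodes the histone methyltransferase whose zinc fingers place the breaks, and lies on the minus strand of chromosome 17 (chr17:15543079-15564354, GRCm38 as for all positions, with the pseudogene Gm18564 on the opposite strand). In the early meiotic prophase-like class it stood at 106, 135 and 154 CPM in the libraries labelled HFD and at 120, 130 and 148 CPM in those labelled LFD. Pachytene-like levels were 0.344 to 1.24 CPM, so the classes did not overlap in any library. The rise from the spermatogonia-like class (mean 9.27 ± 2.37 CPM, SD, n = 6) was 3.84 ± 0.24 on the log2 scale (SE, edgeR adjusted p = 1.26e-18), and the fall into the pachytene-like class was -6.97 ± 0.25 (edgeR adjusted p = 2.17e-28). After that it stayed at a mean of 0.513 to 1.36 CPM in every later class, which is 38 UMIs in 1393 barcodes for the pachytene-like class.

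Hormad1, which encodes an axis protein of unsynapsed chromosomes, had a broader course. The gene spans chr3:95559677-95587671 on the plus strand. It stood at 589, 698 and 649 CPM in the early meiotic prophase-like barcodes labelled HFD and at 602, 652 and 447 CPM in those labelled LFD. It was 3.10 ± 0.18 higher on the log2 scale than in the spermatogonia-like class (edgeR adjusted p = 2.59e-19). Pachytene-like libraries held 273, 372 and 492 CPM as lowest, median and highest, and the difference from early prophase of -0.25 ± 0.16 did not pass the test (edgeR adjusted p = 0.152). Its level then fell by 1.63 ± 0.16 into the late spermatocyte-like class and fell by 1.43 ± 0.17 into the early round spermatid-like class (edgeR adjusted p = 4.09e-12 and 7.21e-10), with medians of 116 and 39.9 CPM. Somatic classes should lack the gene. Over all libraries they held 131 CPM (Sertoli-like), 210 CPM (macrophage-like) and 81.5 CPM (Leydig, peritubular and stromal-like, called Leydig-like from here). The late spermatocyte-like median lay within the range of these levels and the early round median below it. Thinned to 5000 UMIs, 42.0% of late spermatocyte-like, 20.4% of early round and 8.64% of later round barcodes held Hormad1. The somatic shares were 28.0%, 42.9% and 17.0% in the same order. The part of free RNA in the late spermatocyte-like and round spermatid-like levels was not tested. Per barcode, early prophase held 5.37 Hormad1 UMIs and pachytene 14.6, while the median UMIs of all genes were 7572 and 31294.

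Spo11, on the plus strand of chromosome 2 (chr2:172977700-172993576), encodes the break-making enzyme itself. It rose by 2.33 ± 0.25 on the log2 scale from the spermatogonia-like class (edgeR adjusted p = 4.91e-11), where the mean was 12.7 ± 4.35 CPM. It rose by a further 1.27 ± 0.19 into the pachytene-like class (edgeR adjusted p = 3.81e-08). Pachytene-like levels were 107, 120 and 127 CPM in the libraries labelled HFD and 107, 97.3 and 90.1 CPM in those labelled LFD. Spo11 was thus highest after the class in which Prdm9 and Dmc1 were highest, in 6 of 6 libraries. Its mean was 79.7 ± 11.2 CPM in late spermatocyte-like, 65.9 ± 5.50 CPM in early round and 38.2 ± 3.05 CPM in later round spermatid-like barcodes. Sertoli-like, macrophage-like and Leydig-like barcodes held 36.2, 74.5 and 27.8 CPM over all libraries, and the part of free RNA in the levels after pachytene was not tested. Thinned to 5000 UMIs, 27.0%, 23.9% and 17.3% of these barcodes held Spo11, against 14.3%, 19.6% and 12.9% in the somatic classes. The step from pachytene to late spermatocytes was -0.45 ± 0.17 (edgeR adjusted p = 0.0209), and it missed the threshold with RLE size factors at -0.27 (edgeR adjusted p = 0.104), without HFD replicate 1 at -0.32 (0.124) and without LFD replicate 1 at -0.40 (0.0725). The step into the early round class was -0.18 ± 0.18 (edgeR adjusted p = 0.414).

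The strand exchange gene Dmc1 followed Prdm9. It lies on the minus strand of chromosome 15 (chr15:79561497-79605109, with the miRNA gene Gm27903 inside it). Early meiotic prophase-like levels were 182, 232 and 193 CPM in the libraries labelled HFD and 186, 138 and 169 CPM in those labelled LFD. The rise from the spermatogonia-like class, at a mean of 26.6 ± 6.70 CPM, was 2.79 ± 0.23 (edgeR adjusted p = 2.67e-14). The fall into the pachytene-like class was -5.95 ± 0.26 (edgeR adjusted p = 1.11e-25), to between 0.605 and 2.65 CPM, or from 1.60 to 0.0847 UMIs per barcode.

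Meiob, whose product binds single-stranded DNA beside RPA, made the largest step of the 10 genes on entry into prophase. The gene spans chr17:24804289-24839788 on the plus strand. It stood at 1.43 to 4.07 CPM in the spermatogonia-like class and rose by 5.61 ± 0.32 (edgeR adjusted p = 1.26e-19). Early meiotic prophase-like levels were 156, 198 and 148 CPM in the libraries labelled HFD and 153, 138 and 54.4 CPM in those labelled LFD, of which replicate 3 was the lowest. Meiob held a mean of 20.5 ± 5.47 CPM in the pachytene-like class, a difference of -2.29 ± 0.20, and differed again by -2.34 ± 0.25 in the late spermatocyte-like class (edgeR adjusted p = 2.04e-14 and 1.43e-11).

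Msh4 and Msh5 encode the partners of the crossover-stabilising complex. Msh5 (chr17:35028605-35046745, minus strand) rose by 3.34 ± 0.19 into early prophase, to 64.8, 82.8 and 69.4 CPM in the libraries labelled HFD and 77.6, 61.7 and 54.4 CPM in those labelled LFD (edgeR adjusted p = 1.98e-19). It fell by 1.90 ± 0.14 into the pachytene-like class, where 6 libraries lay between 12.5 and 14.0 CPM (edgeR adjusted p = 7.26e-17). Its medians were then 8.72 CPM in the late spermatocyte-like, 5.66 CPM in the early round and 3.61 CPM in the later round class. The first of these steps was -0.56 ± 0.15 (edgeR adjusted p = 0.00112) and lost its call with no filter on low counts (-0.36, adjusted p = 0.105). The second was -0.48 (edgeR adjusted p = 0.0225) and rests on single libraries, as given with the spermatid classes, and the last was -0.38 and did not pass (edgeR adjusted p = 0.0673). Msh4 (chr3:153857149-153906138, minus strand, with the snoRNA gene Gm24395 opposite) rose by 2.47 ± 0.29 to a median of 20.7 CPM (edgeR adjusted p = 5.08e-10). Its pachytene-like difference of -0.16 ± 0.18 did not pass the test (edgeR adjusted p = 0.438), but Msh4 was called lower there with RLE size factors. The step into the late spermatocyte-like class was -2.24 ± 0.21 (edgeR adjusted p = 3.40e-13). Across the 48 sums of 8 classes in 6 libraries, the profile of Msh5 was closest to Meiob among the 10 genes (Pearson r = 0.906, a description across sums that share libraries).

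Hfm1 encodes the helicase HFM1, which works with the MSH4 and MSH5 pair, and lies on chr5:106840192-106926321 (minus strand, with 2 small overlapping genes). It rose by 4.08 ± 0.24 into early prophase (edgeR adjusted p = 2.77e-19), to 142, 261 and 209 CPM in the libraries labelled HFD and 156, 160 and 126 CPM in those labelled LFD. It then fell in both following steps, at -1.01 ± 0.17 and -3.44 ± 0.21 (edgeR adjusted p = 1.24e-06 and 8.78e-19). Ccnb1ip1 encodes the ubiquitin ligase HEI10, which gathers at future crossover sites (chr14:50789248-50807732, minus strand, overlapping the RNA gene Rpph1 on the same strand). Its early prophase levels lay close together, at 40.9 to 46.7 CPM with a mean of 44.4 ± 2.46 CPM, after a rise of 1.20 ± 0.23 (edgeR adjusted p = 2.16e-05). It kept 25.3 to 46.2 CPM in the pachytene-like class and then dropped to 0.690 to 2.35 CPM in the late spermatocyte-like class, a fall of -4.69 ± 0.26 (edgeR adjusted p = 2.52e-20).

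Mlh3 encodes a nuclease subunit of crossover resolution and lies on chr12:85234520-85270599 (minus strand, with the miRNA gene Mir6938 inside it and the pseudogene Gm46369 opposite). It was the only 1 of the 10 genes without a passing change into early prophase, at 0.36 ± 0.22 (edgeR adjusted p = 0.167). Pachytene-like levels were 77.2, 136 and 117 CPM in the libraries labelled HFD and 90.1, 105 and 88.9 CPM in those labelled LFD, a rise of 1.86 ± 0.19 (edgeR adjusted p = 1.28e-12). Mlh3 then fell by 1.30 ± 0.17 into the late spermatocyte-like class and fell by 3.11 ± 0.23 into the early round spermatid-like class (edgeR adjusted p = 4.76e-09 and 2.70e-16), with medians of 40.4 and 5.18 CPM.

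From the early meiotic prophase-like to the pachytene-like class, 2 of the 10 genes (Spo11 and Mlh3) rose and 5 fell, beside 35.5% and 38.1% of all genes (73.6% either way). The share of genes called is high for all genes, so the sizes carry more than the count. The median difference was -0.63 over the 10 genes and -0.19 over all genes. This comparison depends on the scaling, since RLE size factors moved the median of all genes to -0.86 and the calls from 5428 higher and 5823 lower to 3689 and 8181. Hormad1, Msh4 and Ccnb1ip1 were then also called lower, Ccnb1ip1 at -0.51, while Spo11 and Mlh3 were still called higher. From the pachytene-like to the late spermatocyte-like class 8 genes fell and none rose, beside 33.9% and 29.9% of all genes (63.7% either way), with medians of -1.47 and -0.0019. Dmc1 at 0.15 ± 0.34 and Prdm9 at 0.78 ± 0.39 did not pass there, on 118 and 38 UMIs in the pachytene-like class. Prdm9 passed with RLE size factors and turned to -0.31 with a minimum of 10000 UMIs per barcode.

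**Figure D2:**
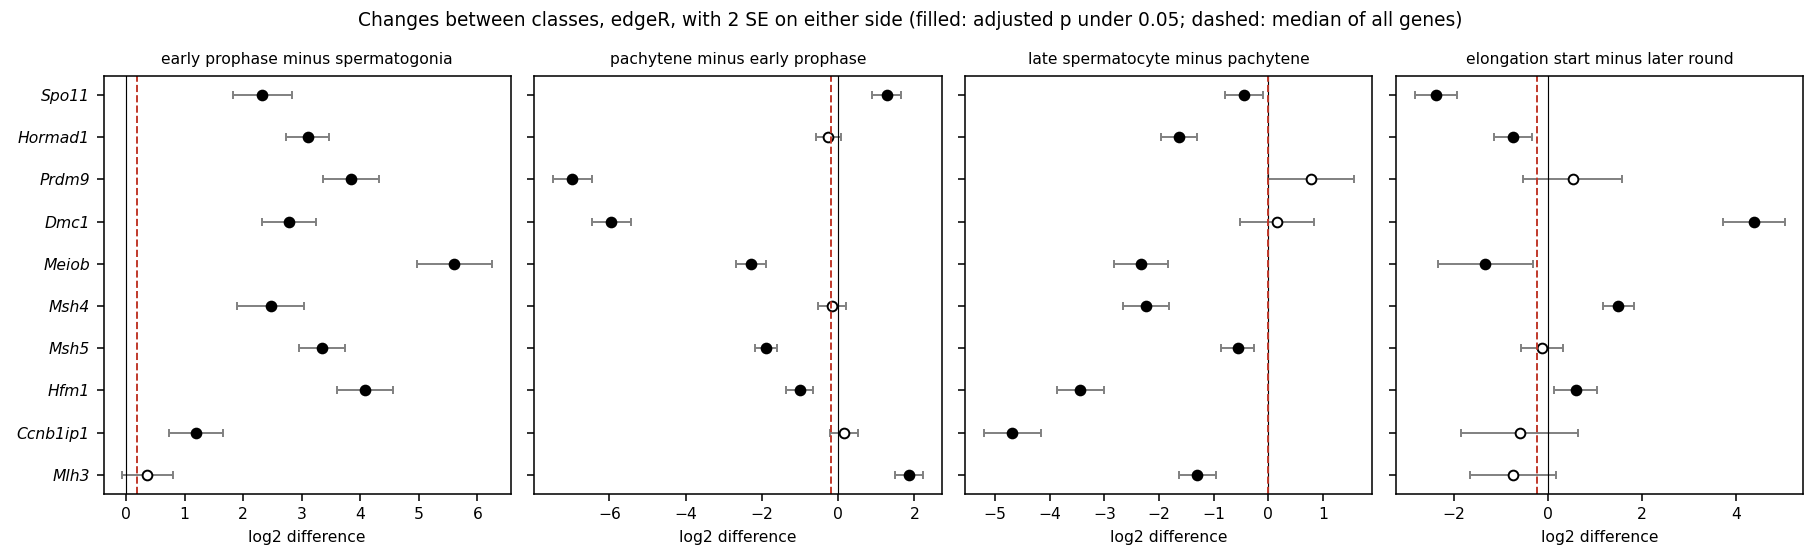
Log2 difference of each recombination gene between adjoining classes with 2 SE on either side (edgeR, 6 libraries), filled where the adjusted p was under 0.05, with the median of all genes as a dashed line. Meiob makes the largest rise into early prophase (5.61), Prdm9 the largest fall into pachytene (-6.97) and Ccnb1ip1 the largest fall after it (-4.69), and Msh4 rises at the start of elongation (1.50).

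The same course was read along an axis made from the same marker scores. Barcodes that had received no class were left out of it. Each barcode of the spermatogonia-like to late spermatocyte-like classes was placed on an axis from 0 (spermatogonia) through 1 (early prophase) and 2 (pachytene) to 3 (late spermatocyte) by its marker scores. The centre of each gene's level along the axis was computed in each library. Prdm9 came first, at 1.02 ± 0.031 (SD, n = 6 libraries), and Dmc1 next, at 1.05 ± 0.023. Msh5 (1.32 ± 0.043), Ccnb1ip1 (1.32 ± 0.10), Meiob (1.36 ± 0.055) and Hfm1 (1.38 ± 0.038) lay together behind them. Msh4 (1.47 ± 0.073) and Hormad1 (1.52 ± 0.040) followed, and Mlh3 (1.69 ± 0.053) and Spo11 (1.89 ± 0.044) came last. No background was taken off the levels before the centres were computed. Between 2.5 and 3.0 on the axis Spo11 still held 68.4 to 102 CPM and Mlh3 24.6 to 59.2 CPM across the libraries. The part of free RNA in the centres was not tested.

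Of the 45 pairs among the 10 genes, 35 had the same order in 6 of 6 libraries. All 35 had an adjusted p of 0.0402 by a two-sided exact permutation test of signs over 6 libraries, in which 0.03125 before adjustment is the smallest p that 6 libraries can give. Of the 9 neighbouring pairs, 3 differed in this way. These were Dmc1 and Msh5, a step of 0.27 ± 0.059 (SD), Hormad1 and Mlh3 (0.17 ± 0.071), and Mlh3 and Spo11 (0.20 ± 0.074). The order within Msh5, Ccnb1ip1, Meiob and Hfm1 was not resolved, with Msh5 before Ccnb1ip1 in 3 of 6 libraries (exact permutation p = 0.938, adjusted p = 0.938). Msh5 came before Msh4 in 6 of 6 libraries, by 0.15 ± 0.067. With a minimum of 10000 UMIs per barcode their mean centres were level, at 1.48 ± 0.24 for Msh5 and 1.48 ± 0.088 for Msh4. The smallest bin of a library then held 6 barcodes. Prdm9 came before Dmc1 in 5 of 6 libraries (exact permutation p = 0.125, adjusted p = 0.141).

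**Figure D3:**
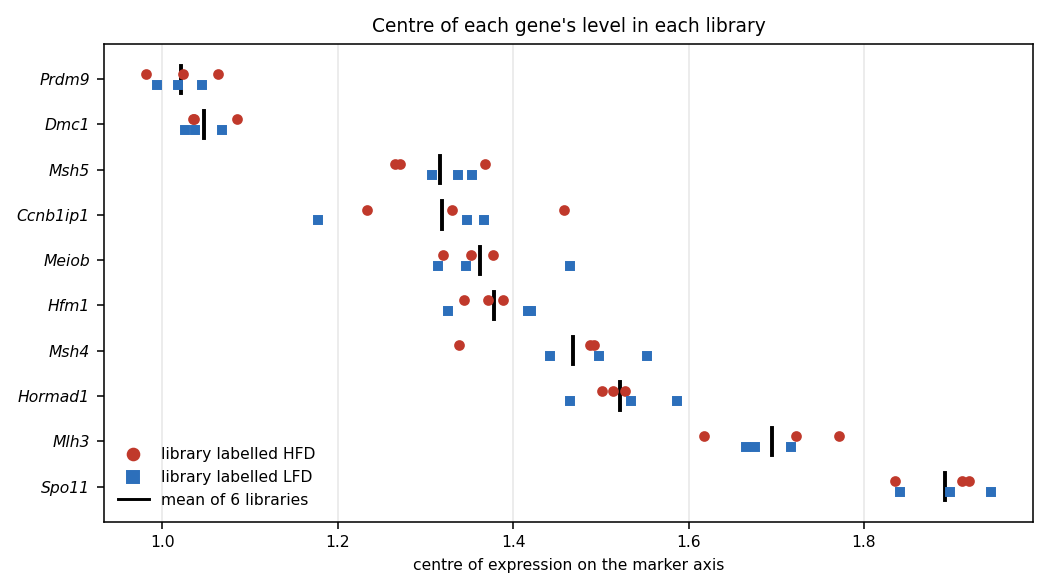
Centre of each recombination gene's level on the marker axis (horizontal, no unit), with 1 point per library and the mean of 6 libraries as a black bar. Prdm9 and Dmc1 lie between 0.981 and 1.08 in every library, and Spo11 between 1.84 and 1.94.

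In finer bins of the pooled libraries, Dmc1, Prdm9, Msh5 and Hfm1 were highest between 1.0 and 1.25, at 243, 148, 90.9 and 243 CPM over 445 barcodes. Meiob, Msh4 and Hormad1 were highest between 1.25 and 1.5, at 208, 32.8 and 839 CPM over 105 barcodes. Ccnb1ip1 reached 70.4 CPM between 1.5 and 1.75, above its level in either class. Mlh3 and Spo11 were highest between 1.75 and 2.0, at 136 and 113 CPM over 508 barcodes. The median UMIs per barcode rose along the same bins, from 7539 between 1.0 and 1.25 to 32022.5 between 1.75 and 2.0, and the part of depth in the order was not tested.

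**Figure D4:**
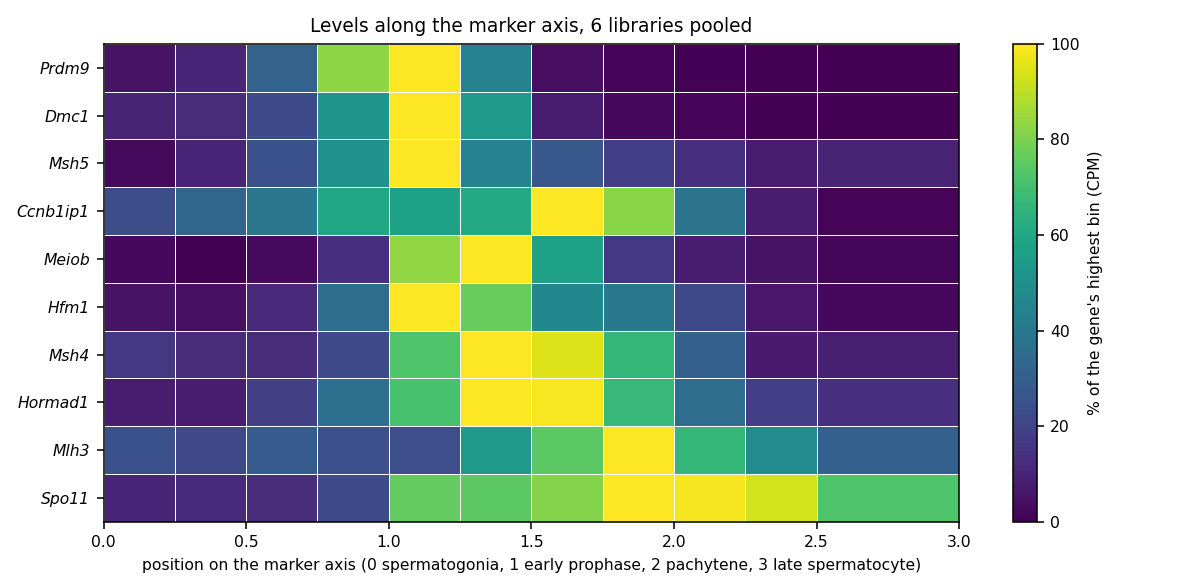
Level of each recombination gene in bins of the marker axis (horizontal), as a percent of the gene's highest bin in CPM, over 6 pooled libraries, with genes in the order of their centres. The bright bins move from between 1.0 and 1.25 for Prdm9 and Dmc1 to between 1.75 and 2.0 for Mlh3 and Spo11.

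Single barcodes carried several of these transcripts at once in early prophase. With each barcode thinned to 5000 UMIs, an early meiotic prophase-like barcode held UMIs of a median of 4 of the 10 genes, and 72.8% held 3 or more. In pachytene-like barcodes the median was 2 and 36.3% held 3 or more, and in late spermatocyte-like barcodes the median was 1. The share of barcodes with 3 or more was 0.912% in early round and 0.195% in elongation-start spermatid-like barcodes. In the somatic classes, 10.6% of 161 Sertoli-like, 10.7% of 56 macrophage-like and 3.51% of 171 Leydig-like barcodes held 3 or more. A share in this range was not read as expression in a germ cell class. The part of free RNA in these shares was not tested. Without thinning, the medians were 5 genes in both the early prophase and the pachytene classes.

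For single genes the thinned shares followed the CPM. Hormad1 was found in 83.1% of early meiotic prophase-like barcodes (89.6% unthinned), Dmc1 in 54.0% (66.5%), Hfm1 in 52.1% (62.2%) and Prdm9 in 40.4% (51.9%). Sertoli-like barcodes gave 28.0%, 3.11%, 4.97% and 3.11% for the same genes (41.6%, 13.7%, 18.6% and 5.59% unthinned), at a median of 13647 UMIs. In pachytene-like barcodes Dmc1 was found in 1.87% and Prdm9 in 0.574%, both below the Sertoli-like share, and the part of free RNA was not tested. Spo11 was found in 39.7% and Mlh3 in 37.7% of pachytene-like barcodes, against 14.3% and 9.94% in Sertoli-like ones. The 56 macrophage-like barcodes (median 6207.5 UMIs) gave 42.9% for Hormad1, 19.6% for Spo11, 16.1% for Mlh3, 7.14% for Hfm1 and 1.79% each for Dmc1 and Prdm9. Leydig-like barcodes (median 7089 UMIs) gave 17.0%, 12.9%, 15.8%, 2.92%, 1.17% and 0.585% for the same genes.

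Msh4 rose again among spermatid classes. Both contrasts among spermatid classes were added after the levels had been seen. Msh4 stood at 1.42 to 4.85 CPM in the early round class and at 8.72 to 13.1 CPM in the later round class. Its rise of 2.14 ± 0.22 (edgeR adjusted p = 3.58e-12) was followed by 1.50 ± 0.16 into the elongation-start class (edgeR adjusted p = 2.45e-11). There it reached 16.6, 24.2 and 19.9 CPM in the libraries labelled HFD and 18.3, 23.7 and 16.4 CPM in those labelled LFD. That level overlapped the early prophase level of 13.6 to 24.3 CPM, which was the higher in 4 of 6 libraries. The edgeR difference of Dmc1 into the elongation-start class was 4.39 ± 0.33 on its TMM-scaled log2 scale (edgeR adjusted p = 7.57e-17). In CPM the level of Dmc1 went from 0.169 to 1.14 CPM up to 5.31 to 8.58 CPM. At 7.16 ± 1.47 CPM this was far below its early prophase level of 183 ± 30.8 CPM. Thinned to 5000 UMIs, 8.75% of elongation-start barcodes held Msh4 (46.3% unthinned) and 3.11% held Dmc1 (23.2% unthinned), at a median of 39711 UMIs. Sertoli-like barcodes gave 4.97% for Msh4 (9.94% unthinned) and 3.11% for Dmc1 (13.7% unthinned), with Dmc1 at 10.4 CPM and Msh4 at 7.04 CPM over all libraries. Macrophage-like and Leydig-like barcodes gave 1.79% and 1.17% for Msh4, at 11.5 and 6.04 CPM, and 1.79% and 1.17% for Dmc1, at 2.86 and 3.62 CPM. The Dmc1 share is thus close to that of the Sertoli-like class, which should lack the gene. It was 0.212% in the later round class, at a median of 35401 UMIs. The part of free RNA in the Dmc1 level and in its difference between the spermatid classes was not tested.

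In the same elongation-start barcodes Prdm9, Meiob, Ccnb1ip1 and Mlh3 had mean levels of 0.276 to 0.601 CPM. Spo11 fell by 2.37 ± 0.23 into this class (edgeR adjusted p = 4.64e-13), to between 1.83 and 6.63 CPM. Hfm1 rose by 0.60 ± 0.23 (edgeR adjusted p = 0.0220), which turned to -0.018 with library totals and no scaling factor and lost the call without HFD replicate 1 (0.55, adjusted p = 0.0641) or LFD replicate 1 (0.44, adjusted p = 0.113). Hormad1 fell by 0.74 ± 0.20 (edgeR adjusted p = 0.00118), which lost the call with RLE size factors (-0.42, adjusted p = 0.0755) and turned to 0.070 with a minimum of 3000 UMIs. Meiob fell by 1.33 ± 0.51 (edgeR adjusted p = 0.0205) on 11 UMIs in the class and lost the call with RLE size factors (-1.03, adjusted p = 0.0988) and without LFD replicate 2 (-1.10, 0.0712) or replicate 3 (-1.06, 0.0716). In all, 3 of the 10 genes rose and 3 fell, beside 25.8% and 34.8% of all genes (60.6% either way), with medians of -0.36 and -0.22. RLE size factors moved the calls of all genes from 3936 higher and 5319 lower to 5145 and 4005, and their median to 0.09.

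From the early to the later round class 2 rose (Msh4, and Hfm1 by 0.73 ± 0.24) and 2 fell (Mlh3 at -1.15 ± 0.27 and Hormad1 at -0.74 ± 0.17), beside 29.3% and 20.1% of all genes (49.4% either way). Library totals with no scaling factor moved the calls of all genes from 4474 higher and 3074 lower to 3505 and 5390 and their median from 0.04 to -0.32, and the rise of Hfm1 then did not pass (0.35, adjusted p = 0.224), as it did not without HFD replicate 3 (0.54, adjusted p = 0.127). From the late spermatocyte-like to the early round class 3 fell (Mlh3, Hormad1, and Msh5 at -0.48 ± 0.18) and none rose, beside 25.9% and 23.7% (49.6% either way). The Msh5 fall lost its call without any 1 of 5 libraries, at -0.24 to -0.49 (without HFD replicates 1, 2 or 3 or LFD replicates 2 or 3). In that step the other values were -0.01 for Meiob, 0.18 for Msh4, -0.04 for Hfm1, -0.41 for Ccnb1ip1, -0.78 for Dmc1 and -1.04 for Prdm9, none of which passed. The smallest elongation-start group was 32 barcodes in a library.

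Elongating spermatid-like barcodes held Hormad1 at 10.4 to 78.3 CPM and Spo11 at 5.18 to 51.9 CPM, or to 15.8 CPM without HFD replicate 2. Sertoli-like barcodes held Hormad1 at 131 CPM and Spo11 at 36.2 CPM over all libraries. The part of free RNA in these levels was not tested.

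Genes with the most similar course were named by the correlation of log2(CPM + 1) over the 48 sums, among 13065 genes with at least 500 UMIs. Hormad1 was closest to Sycp3, a component of the chromosome axis (r = 0.986), and then to Mdc1 (0.976). Ccnb1ip1 was closest to Tex12, of the synaptonemal complex (0.973), and Mrpl27 (0.971), and Hfm1 to Spata22, the partner of MEIOB (0.950), and Dnajc3 (0.938). Mlh3 was closest to Rnf6 (0.977) and Mllt10 (0.972), Spo11 to Krcc1 (0.970) and Spdya (0.966), and Prdm9 to Alcam (0.968) and Ugt8a (0.967). Dmc1 was closest to Cyld (0.956) and Capn7 (0.953), Meiob to Ly6k (0.945) and Ccdc122 (0.921), and Msh5 to Inca1 (0.941) and Pigp (0.939). Msh4 had the weakest matches, Tob1 (0.839) and Fbxo6 (0.781). Among the 10 genes themselves Dmc1 and Prdm9 had the highest correlation (0.913), and Spo11 and Dmc1 the lowest (-0.16).

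The rest of the pathway was read through a list of 42 symbols of further recombination genes, of which 38 were in the tables. Some genes were listed under both an older and a newer symbol. On entry into early prophase 24 of them rose and 6 fell, beside 25.7% and 21.6% of all genes, with a median of 0.73 beside 0.18 for all genes. The largest changes were in Spata22 (3.80 ± 0.48), Helb, a helicase that limits resection (-3.20 ± 0.35), Shoc1, a crossover factor (2.82 ± 0.26), and Cntd1 (2.46 ± 0.22), with edgeR adjusted p from 2.07e-13 to 4.32e-09. Into the pachytene-like class 7 rose and 26 fell, beside 35.5% and 38.1% of all genes. The largest falls were in Tex11 (-7.53 ± 0.32), Mei4, a partner of SPO11 in break formation (-6.98 ± 0.47), Tex15 (-6.67 ± 0.20) and Mei1 (-4.18 ± 0.21), all by edgeR at adjusted p of 1.50e-17 or less.

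Into the late spermatocyte-like class 8 of the 38 rose and 25 fell, beside 29.9% and 33.9% of all genes. Spata22 fell by 5.13 ± 0.44, Helb fell by 2.19 ± 0.65, and Tex11 rose again by 4.28 ± 0.34 (edgeR adjusted p of 0.00369 or less). In the early round class 4 rose and 19 fell, beside 23.7% and 25.9%. Rnf212b was up by 2.52 ± 0.25 and Tex11 and Rpa2 were lower, at -1.84 ± 0.31 and -1.78 ± 0.30. In the later round class 5 rose and 11 fell, beside 29.3% and 20.1%, and the largest were Brca2 (1.52 ± 0.14), Rad50 (-1.51 ± 0.20), Rec114 (1.45 ± 0.21) and Trip13 (1.41 ± 0.23). At the start of elongation 4 rose and 17 fell, beside 25.8% and 34.8%. Mnd1, which helps DMC1 in strand exchange, rose by 2.48 ± 0.31 (edgeR adjusted p = 8.67e-10). Rnf212b, Tex15 and Ccdc36 fell there, at -3.10 ± 0.33, -2.88 ± 0.18 and -2.57 ± 0.42.

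By diet, none of the 10 genes passed edgeR's test in the spermatogonia-like, early meiotic prophase-like, pachytene-like or late spermatocyte-like class or in the whole testis, and neither did any of the 38 further recombination genes. Across all genes the share called was 0.00% in each of these comparisons. In the spermatogonia-like and late spermatocyte-like classes, 5 and 8 of the 10 genes were high enough to test, and 154 of 9514 and 165 of 11032 genes were under an unadjusted p of 0.05 by edgeR, 38 and 78 by DESeq2. In the early meiotic prophase-like class 255 of 9926 genes were under an unadjusted p of 0.05 by edgeR, and 97 by DESeq2, which also called none. The differences (labelled HFD minus labelled LFD) there ran from 0.02 ± 0.18 for Prdm9 to 0.49 ± 0.26 for Meiob, with Hfm1 at 0.47 ± 0.20, Spo11 at 0.34 ± 0.23, Dmc1 at 0.32 ± 0.18, Mlh3 at 0.27 ± 0.23, Hormad1 at 0.20 ± 0.18, Msh5 at 0.16 ± 0.20, Msh4 at 0.08 ± 0.28 and Ccnb1ip1 at 0.06 ± 0.21. The smallest adjusted p over all genes was 0.999. Taking 2 SE on either side gave 0.063 to 0.881 for Hfm1 and -0.025 to 1.00 for Meiob, so these data do not show that the diets were alike. The labelled diets overlapped in CPM for each of the 10 genes, where 7.60% of all genes did not overlap (3.63% higher in HFD and 3.97% in LFD). The mean position of these barcodes on the marker axis described above was 0.999, 1.02 and 1.06 in the libraries labelled HFD and 0.991, 1.09 and 0.924 in those labelled LFD. Prm1, a protamine of elongating spermatids, stood at 1847 to 4006 CPM in the same sums, lowest in LFD replicate 3, and the part of either measure in the differences was not tested.

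In the pachytene-like class 496 of 12771 genes were under an unadjusted p of 0.05 by edgeR and 319 by DESeq2, and none passed adjustment in either. Differences were 0.36 ± 0.38 for Dmc1, 0.27 ± 0.12 for Spo11, 0.22 ± 0.16 for Mlh3, 0.21 ± 0.21 for Hfm1, 0.17 ± 0.18 for Hormad1, 0.15 ± 0.22 for Meiob, 0.03 ± 0.18 for Ccnb1ip1, 0.0012 ± 0.17 for Msh5 and -0.03 ± 0.21 for Msh4. Prdm9 was too low there to be tested. The median over the genes tested was 0.17, and it turned to -0.082 with a minimum of 10000 UMIs and to -0.0084 with a margin of 0.5. None of the 10 genes separated the labelled diets, beside 10.5% of all genes (5.25% higher in HFD and 5.29% in LFD). The pachytene-like barcodes differed in depth, with medians of 47525.5, 37018.5 and 27034 UMIs in the libraries labelled HFD and 41915, 9984 and 8619 UMIs in those labelled LFD, and the part of depth was not tested. The test of whether diet acted differently in the early prophase and pachytene classes called none of the 10 genes and 0% of all genes, with the smallest adjusted p over all genes at 0.977.

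In the whole testis all 10 genes had the higher mean in the libraries labelled HFD. Differences ran from 0.18 ± 0.16 for Msh4 to 0.68 ± 0.28 for Meiob, at a median of 0.46 beside 0.02 for all genes, and the adjusted p was 0.986 for each by edgeR. Of 20727 genes 471 were under an unadjusted p of 0.05 by edgeR and 430 by DESeq2. All 10 overlapped between the labelled diets, where 6.83% of all genes did not (1.87% higher in HFD and 4.97% in LFD). These sums hold every barcode, so fewer cells of a stage and less RNA per cell cannot be told apart. Pachytene-like barcodes gave 15.2%, 14.9% and 15.4% of the UMIs in the libraries labelled HFD and 13.1%, 8.59% and 4.22% in those labelled LFD, and the part of this in the differences was not tested.

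**Figure D5:**
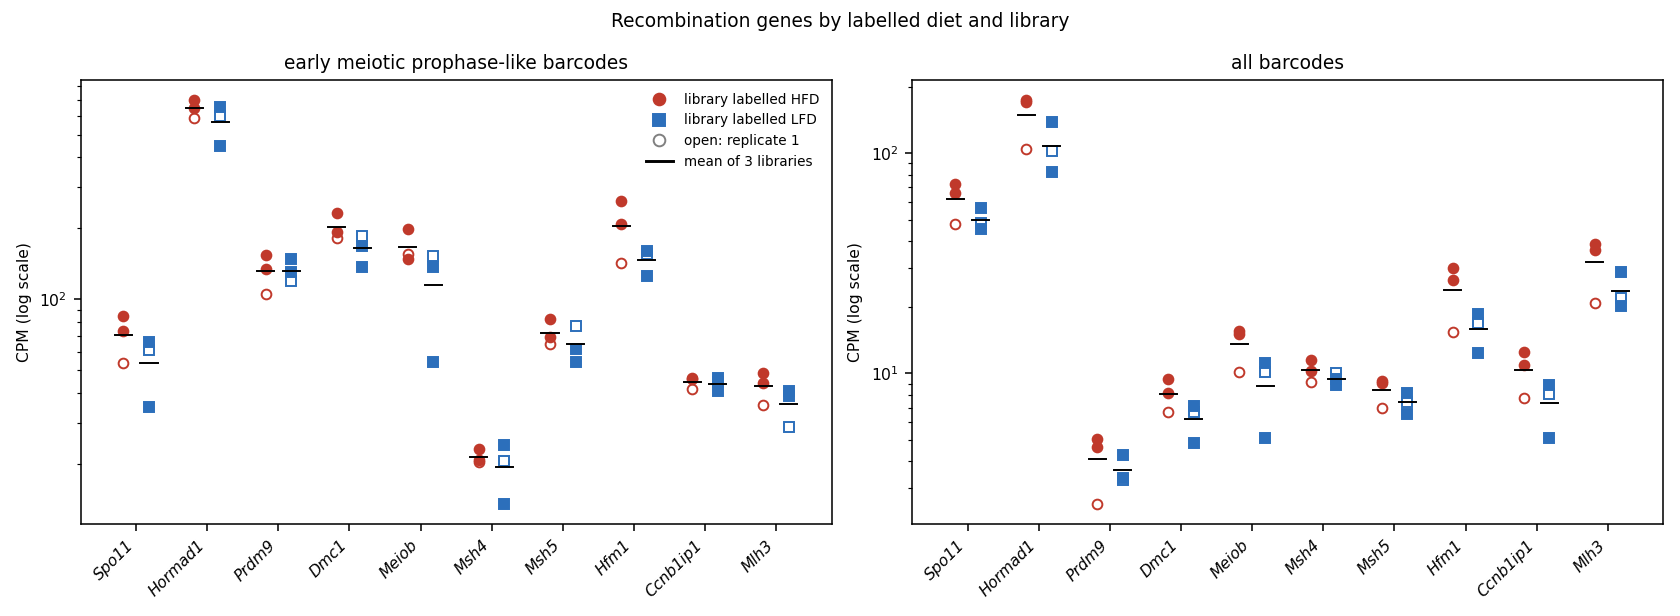
CPM (log axis) of each recombination gene in early meiotic prophase-like barcodes (left) and in all barcodes (right), with 1 point per library, open for replicate 1, and the mean of 3 libraries as a black bar. The labelled diets overlap for all 10 genes in both panels, and the replicate 1 libraries lie close together in the whole testis.

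In the whole testis and the early prophase and pachytene-like classes the differences were positive in replicates 2 and 3 and mostly not in replicate 1, which stands apart in its haemoglobin transcripts. In the whole testis, replicate 1 labelled HFD minus replicate 1 labelled LFD was -0.26 to 0.041 on the log2(CPM + 1) scale and above 0 for 3 of the 10 genes, as for 42.1% of 23061 genes. In replicates 2 and 3 it was 0.23 to 0.93 and above 0 for all 10, as for 46.0% of genes. In the early prophase class the ranges were -0.26 to 0.29 (2 of 10 above 0, beside 46.5% of 12300 genes) in replicate 1 and 0.056 to 0.97 (10 of 10, beside 51.6%) in the others. In the pachytene-like class they were -0.52 to 0.069 (1 of 10, beside 39.5% of 14903 genes) and 0.017 to 0.62 (10 of 10, beside 52.9%). The split was not the same in the other classes. In the spermatogonia-like class 6 of the 10 genes were above 0 in replicate 1 and 4 in replicates 2 and 3, with 5 and 5 in the late spermatocyte-like and 4 and 5 in the early round class. The later round class had 5 and 9 (53.5% and 57.0% of all genes), the elongation-start class 5 and 9 (41.4% and 55.8%) and the elongating class 9 and 9 (67.3% and 72.0%). The replicate 1 pair is 1 library against 1, and the other pair 2 against 2, and no test was made within them. With the haemoglobin split as a term, edgeR called none of the 10 genes in the early prophase or pachytene-like class or the whole testis.

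Diet was not tested by a model in the spermatid classes, and the counts given here were read after the levels had been seen. In the early round class 1 of the 10 genes, Hfm1, did not overlap between the labelled diets and was higher in LFD, beside 5.44% of all genes (6.27% higher in HFD, 11.7% either way). In the later round class Dmc1 (46 UMIs in all 2362 barcodes), Meiob (183 UMIs) and Msh5 (325 UMIs) did not overlap and were higher in HFD. Of all genes 5.55% did so (3.05% higher in LFD, 8.6% either way). In the elongation-start class these were Spo11, Meiob (11 UMIs in all) and Mlh3 (12 UMIs in all), beside 3.41% (4.86% higher in LFD, 8.27% either way). In the elongating class they were Msh4, Hormad1 and Ccnb1ip1, beside 8.27% (1.71% higher in LFD, 9.98% either way). Shares of all genes, here and between replicates, cover only genes with at least 20 UMIs over the 6 libraries of a class. Prdm9, Meiob, Mlh3 and Ccnb1ip1 were below that in the elongation-start class, so its shares are not on a like base. In the spermatogonia-like and late spermatocyte-like classes 0 of the 10 genes separated the diets.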

How the data were processed

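Whole testes were dissociated and sequenced by droplet single-cell RNA-seq, 1 library per sample. The authors deposited raw UMI counts per gene and barcode, made with Cell Ranger 6.0.1 on mm10 with its own calling of barcodes as cells. Cell calling sets which shallow barcodes are present, and mapping of transcript ends leaves levels of different genes not comparable. Doublets had not been marked in the deposited counts. They were kept, and leaving out the 3356 barcodes with the highest Scrublet scores was an alternative.

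Each barcode with at least 5000 UMIs was scored (z score of log counts scaled to 10000 UMIs) for marker lists that hold none of the recombination genes. It was classed at a score of 0.5 or more with a margin of 0.25 to the second class. The score rule and the axis were set after the counts had been seen. UMIs were summed per class and library (at least 20 barcodes per library) and tested with edgeR 4.0.16 in R 4.3.3 (TMM, default filter, quasi-likelihood test, two-sided, Benjamini-Hochberg over all genes). The 8 germ cell classes entered a single fit with library as a term, and diets were fitted class by class. Alternatives were DESeq2 1.42.0, RLE size factors, library totals, no filter, other UMI minimums and margins, a term for the replicate 1 libraries, a replicate block and leaving out each library. The centre on the axis is the mean position of bins 0.5 wide, weighted by the gene's CPM. Scripts were tested on simulated data. Python 3.11.15, numpy 2.4.6 and scipy 1.17.1 were used.

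The genes, the marker and pathway lists and the tests were chosen with earlier results of these data known. Named besides the 10 genes were the 2 genes of closest course to each and up to 4 pathway genes per comparison with the largest called changes. Some of the latter are not reported here. Of the pathway list, the symbols Top6bl, Iho1, Brme1 and Spo16 were not matched. The list also holds older symbols of Top6bl, Iho1 and Brme1, which were matched, such as Ccdc36 for Iho1. Groups follow the labels.

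Totals per library ran from 39196921 to 95845514 UMIs, and 62.1% of them fell in classed barcodes, which were 19.7% of barcodes. No pair of libraries agreed within sampling noise (chi-square per degree of freedom 21.4 to 217). Replicate numbers are shared between the diets. Libraries of the same number had deviations from their group means that correlated at 0.194, 0.364 and 0.151 in pachytene-like sums, so the numbers pair these sums by that measure, which comes from the data and not from the labels. In early prophase (0.0894, 0.166 and 0.0290) and whole testis sums (0.487, 0.0311 and 0.262) not every pair was over 0.1.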

Additional observations from a re-analysis of the deposited data

Results flagged for a closer look

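The 6 libraries were checked for a highest or lowest value set far from the rest for its gene. Dixon's ratio of gap to range was used at its 95% limit. The check covered CPM in each germ cell class and in the whole testis, and the centres on the marker axis. Of 100 sets of 6 libraries examined 5 were past the limit, and chance alone gives about 1 in 20. Spo11 in later round spermatid-like barcodes was 44.2 CPM in HFD replicate 3 against 35.9 to 38.0 CPM in the others. Spo11 in elongating spermatid-like barcodes was 51.9 CPM in HFD replicate 2 (442 UMIs in 474 barcodes) against 5.18 to 15.8 CPM. Msh4 in early meiotic prophase-like barcodes was 13.6 CPM in LFD replicate 3 (7 UMIs in 68 barcodes) against 20.5 to 24.3 CPM. Mlh3 in elongation-start spermatid-like barcodes was 1.17 CPM in HFD replicate 3, on 3 UMIs, against 0.394 to 0.604 CPM. Hormad1 in the same class was 10.1 CPM in HFD replicate 3 (26 UMIs in 67 barcodes) against 5.94 to 7.48 CPM.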

How the results depend on the processing

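Of 37 called differences of the 10 genes between adjoining classes, 30 kept their direction and their side of the threshold under every alternative run, and 2 turned in at least 1 (Hormad1 and Hfm1 from the later round to the elongation-start class). Precision is limited by low counts, such as 38 Prdm9 UMIs in the pachytene-like class, 11 Meiob UMIs in the elongation-start class and 30 barcodes in the smallest spermatogonia-like group. The order of gene centres was the same in all libraries for 35 of 45 pairs, and for 30 to 37 pairs under the alternatives. A minimum of 10000 UMIs was not run for diet in early prophase or for the interaction, since LFD replicate 3 then held 16 early barcodes, and DESeq2 was not run for the interaction. The cause was not tested for any change given here.

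By diet, no gene passed in any of the 6 comparisons, and 7, 2, 17 and 2 genes passed with no filter on low counts in the spermatogonia-like, early prophase, pachytene-like and late spermatocyte-like classes, where more genes were tested. Leaving out a library gave 0 to 1 genes in the spermatogonia-like class and 0 to 2 in the whole testis, each from leaving out HFD replicate 1. None of these was a gene described here. With the replicate block the whole testis had 24 calls (1 higher, 23 lower) and none of the 10 genes, and the pairing left the other diet comparisons at 0 calls, with the smallest adjusted p at 0.0958 in the pachytene-like class by edgeR. The block turned Msh5, diet: pachytene-like to -0.0093 and Prdm9, diet: early meiotic prophase-like to -4.36e-05.

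The other turns of sign follow, of which those of Hfm1 and Hormad1 from the later round to the elongation-start class were of called differences. Msh5, diet: pachytene-like was -0.0096 with DESeq2, -0.0097 with RLE size factors, -0.022 with library totals, -0.00019 with no filter, -0.0083 without doublets, -0.0084 with a margin of 0.5 and -0.082 with a minimum of 10000 UMIs. Ccnb1ip1, pachytene-like minus early meiotic prophase-like was -0.52 with DESeq2, -0.51 with RLE size factors, -0.34 with library totals, -0.025 with the margin and -0.061 with a minimum of 3000 UMIs. Ccnb1ip1, diet: pachytene-like was -0.0036 with the term for replicate 1 libraries, -0.044 with the margin and -0.14 with 10000 UMIs. Hfm1, elongation-start spermatid-like minus later round spermatid-like was -0.018 with library totals.

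The margin of 0.5 gave -0.48 for Dmc1, diet: pachytene-like, -0.084 for Meiob, diet: pachytene-like, -0.38 for Msh4, early round spermatid-like minus late spermatocyte-like, -0.013 for Msh4, diet: early meiotic prophase-like, -0.027 for Prdm9, diet: early meiotic prophase-like, 0.44 for Hfm1, early round spermatid-like minus late spermatocyte-like, and -0.018 for Ccnb1ip1, diet: early meiotic prophase-like. The minimum of 10000 UMIs gave -0.61 for Dmc1, late spermatocyte-like minus pachytene-like, -0.15 for Dmc1, diet: pachytene-like, 0.38 for Meiob, early round spermatid-like minus late spermatocyte-like, -0.14 for Meiob, diet: pachytene-like, -0.31 for Prdm9, late spermatocyte-like minus pachytene-like, and 0.40 for Prdm9, early round spermatid-like minus late spermatocyte-like. The minimum of 3000 UMIs, added after seeing the data as were library totals, gave -0.14 for Dmc1, late spermatocyte-like minus pachytene-like, 0.22 for Meiob, 0.14 for Hfm1 and 0.16 for Ccnb1ip1, early round spermatid-like minus late spermatocyte-like, 0.020 for Msh4, diet: pachytene-like, -0.052 for Prdm9, diet: early meiotic prophase-like, and 0.070 for Hormad1, elongation-start spermatid-like minus later round spermatid-like. Leaving out doublets gave -0.038 for Dmc1, late spermatocyte-like minus pachytene-like, and 0.099 for Meiob, early round spermatid-like minus late spermatocyte-like.

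Leaving out 1 library turned 15 values, with these ranges. By diet in the early class they were -0.019 to 0.084 for Ccnb1ip1, -0.058 to 0.24 for Msh4 and -0.11 to 0.14 for Prdm9. By diet in the pachytene-like class they were -0.18 to 0.17 for Ccnb1ip1, -0.064 to 0.40 for Hfm1, -0.032 to 0.29 for Hormad1, -0.0070 to 0.30 for Meiob, -0.29 to 0.10 for Msh4 and -0.067 to 0.030 for Msh5. Between classes they were -0.0022 to 0.37 for Ccnb1ip1 and -0.35 to 0.063 for Msh4 (pachytene-like minus early), -0.25 to 0.38 for Dmc1 (late spermatocyte-like minus pachytene-like), and -0.19 to 0.24 for Hfm1, -0.14 to 0.28 for Meiob and -0.10 to 0.42 for Msh4 (early round minus late).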
